A study of Mus musculus with 9 samples.

Results

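Neutrophil granule genes and S100 genes were followed across wild-type mouse liver, a liver tumor and the liver beside it. The list named 10 genes: S100a8, S100a9, S100a4, S100a6, S100a10, S100a11, Csf3r, Ngp, Camp and Ltf. Every array probe set annotated with one of these symbols and no other was used, which gave 11 probe sets for 9 genes. In all, 34958 of the 45101 probe sets on the array carry a single symbol, and they stand for 18194 genes. S100a10 had 3 probe sets and 8 genes had 1 each. The 1 probe set that carries the S100a11 symbol also carries those of a pseudogene and a predicted gene, so S100a11 has no value here.

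RNA came from 9 pieces of tissue of 2 male mice, both 12 months old, of strain C57Bl6, untreated and fed regular chow. Wild-type liver is 3 pieces of the liver of a wildtype mouse, labelled normal with mild steatosis. Adjacent-labelled liver is 3 pieces of uninvolved liver of a SART1+/- mouse, labelled as cellular alteration with severe steatosis, and tumor is 3 pieces of a hepatocellular carcinoma of the same mouse, also with severe steatosis. Male SART1+/- mice are described as developing such tumors spontaneously. The sources used here do not say how the Sart1 allele was altered. Because each group is pieces of 1 organ or tumor, the p-values measure the spread between pieces, and genotype, steatosis and animal cannot be told apart in any comparison with wild-type liver.

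S100 proteins are small calcium-binding proteins, most of which act as dimers and change shape when calcium rises. S100a8 and S100a9 pair to form calprotectin, which is abundant in the cytosol of neutrophils and monocytes and is released in inflammation, where it binds zinc and manganese and signals through innate immune receptors. S100a4, S100a6, S100a10 and S100a11 are found in many cell types and bind cytoskeletal proteins and annexins. Csf3r is the receptor for the growth factor G-CSF, which drives neutrophil production, and Ngp, Camp and Ltf encode proteins of the secondary granules, which neutrophils make as they mature in the bone marrow.

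Values are the deposited log2 expression values, in which a step of 1 is a doubling. Calls needed both an adjusted p under 0.05 from limma and a log2 difference of 1 or more in either direction, the 2-fold limit. For Sart1 itself the wild-type pieces read 8.35, 8.32 and 8.36, the adjacent-labelled pieces 8.34, 8.39 and 8.38 and the tumor pieces 7.77, 7.71 and 7.75. Tumor differed from wild type by -0.60 (SE 0.055, adjusted p = 3.40e-06). Adjacent-labelled liver differed from wild type by 0.026 (SE 0.055, adjusted p = 0.696), and these pieces are called by their label for that reason. The hepatocyte marker Alb was at 14.45 ± 0.01, 14.49 ± 0.03 and 14.45 ± 0.03 in wild-type liver, adjacent-labelled liver and tumor (SD, n = 3). These values lie at the top of the scale of these arrays and do not measure hepatocyte content, and 4 of 11 hepatocyte markers were called lower in tumor. The 3' minus 5' difference of the Actb control probe sets, a measure of RNA integrity, was 0.860 ± 0.025 and 0.851 ± 0.049 in the first 2 groups and 0.594 ± 0.087 in tumor. It moved with the tumor group, and its part in the results was not tested. In tissue pieces, fewer cells of a type and less RNA per cell cannot be told apart.

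Both groups of the SART1+/- mouse had more S100a8, S100a9, S100a4, S100a6 and Ngp RNA than wild-type liver, by more than 2-fold. In tumor 5 of 11 probe sets were called higher and 0 lower, where 7.8% of all 24140 probe sets tested were called higher and 4.22% lower. In adjacent-labelled liver the same 5 were called higher and 0 lower, against 7.46% and 3.21% of all probe sets tested. The median difference of the 11 was 0.76 in tumor and 0.97 in adjacent-labelled liver, and that of all probe sets tested was -0.0079 and -0.019. The members were chosen with earlier results of these data known, so setting them beside all probe sets is a description. Without regard to fold, 9 of 11 passed the adjusted p in tumor and 11 of 11 in adjacent-labelled liver, where 61.1% and 60.9% of all probe sets did. Members whose 3 pieces did not overlap with the wild-type ones numbered 9 and 11, against 66.8% and 67.9% of all probe sets. These 2 comparisons share the wild-type arrays. S100a4 and Camp passed the filter on dim probe sets through the SART1+/- arrays alone, since all 3 wild-type arrays were below the 40th percentile. With no filter, all 34958 probe sets were tested, 5 of 11 were again called higher in each comparison, and 5.45% and 5.25% of all probe sets were, with 2.99% and 2.27% called lower. Unfiltered, 0 of 11 were called between tumor and adjacent-labelled liver, against 1.6% higher and 1.76% lower.

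The 5 genes that rose are shown by the 250 bases before their annotated start, because they rose in both groups and lie at 2 places in the genome. S100a4, S100a6, S100a8 and S100a9 lie close together on chromosome 3, and Ngp lies on chromosome 9, as do Camp and Ltf. The sequences are from RefSeq, build GRCm38.p6, given 5′ to 3′ on the strand of the gene. Of the 9 genes with values, 8 had an entry. Capitals mark matches on either strand to 4 motifs. The letters TTNNGNAA stand for a core of C/EBP sites and GAGGAA for a core of PU.1 sites, and the AP-1 letters searched were TGANTCA and those of the TATA box TATAAA.
S100a8 (chr3:90668821-90669070, + strand): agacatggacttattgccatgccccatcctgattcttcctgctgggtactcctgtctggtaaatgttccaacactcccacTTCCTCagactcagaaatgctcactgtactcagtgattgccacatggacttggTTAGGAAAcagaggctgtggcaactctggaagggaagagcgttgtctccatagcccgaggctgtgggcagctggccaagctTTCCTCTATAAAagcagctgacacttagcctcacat
S100a9 (chr3:90695722-90695971, - strand): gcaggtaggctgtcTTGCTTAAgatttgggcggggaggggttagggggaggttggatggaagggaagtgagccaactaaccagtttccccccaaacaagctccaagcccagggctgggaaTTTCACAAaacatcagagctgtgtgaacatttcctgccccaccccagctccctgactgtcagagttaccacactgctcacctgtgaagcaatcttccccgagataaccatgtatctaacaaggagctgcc
S100a4 (chr3:90603520-90603769, + strand): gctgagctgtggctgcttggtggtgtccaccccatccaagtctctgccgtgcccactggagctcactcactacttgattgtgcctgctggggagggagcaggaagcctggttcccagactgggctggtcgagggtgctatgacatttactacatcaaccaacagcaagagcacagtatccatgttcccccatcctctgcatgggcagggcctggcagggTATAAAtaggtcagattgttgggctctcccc
S100a6 (chr3:90612644-90612893, + strand): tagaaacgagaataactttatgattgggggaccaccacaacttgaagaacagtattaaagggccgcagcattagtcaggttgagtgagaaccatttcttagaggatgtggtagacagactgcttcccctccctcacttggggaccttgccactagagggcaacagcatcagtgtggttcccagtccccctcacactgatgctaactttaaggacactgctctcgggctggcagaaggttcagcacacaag
Ngp (chr9:110419558-110419807, + strand): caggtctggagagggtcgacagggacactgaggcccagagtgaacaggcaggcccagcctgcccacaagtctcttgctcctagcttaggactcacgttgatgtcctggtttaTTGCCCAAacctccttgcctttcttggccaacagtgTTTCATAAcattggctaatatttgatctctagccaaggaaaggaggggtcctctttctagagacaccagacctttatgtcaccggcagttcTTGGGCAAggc

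The C/EBP letters were found in the windows of S100a8, S100a9, Ngp and Ltf, which is 4 of 8 genes, and in 36.8% of all 32851 promoter windows of that length. Ngp held 3 matches, S100a9 and Ltf 2 each and S100a8 1. The PU.1 letters were found in S100a8, Csf3r and Ltf, 3 of 8, and in 23.3% of all windows. S100a8 held 2 of them, and the one nearer the start runs directly into the TATA letters. Those letters were found in S100a8, from 30 to 25 bases before the start, and in S100a4, from 31 to 26 bases before it, and in 12.4% of all windows. The AP-1 letters were in 0 of 8 windows and in 6.75% of all. No capitals fall in the window of S100a6. These matches describe the letters and do not show binding.

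**Figure D1:**
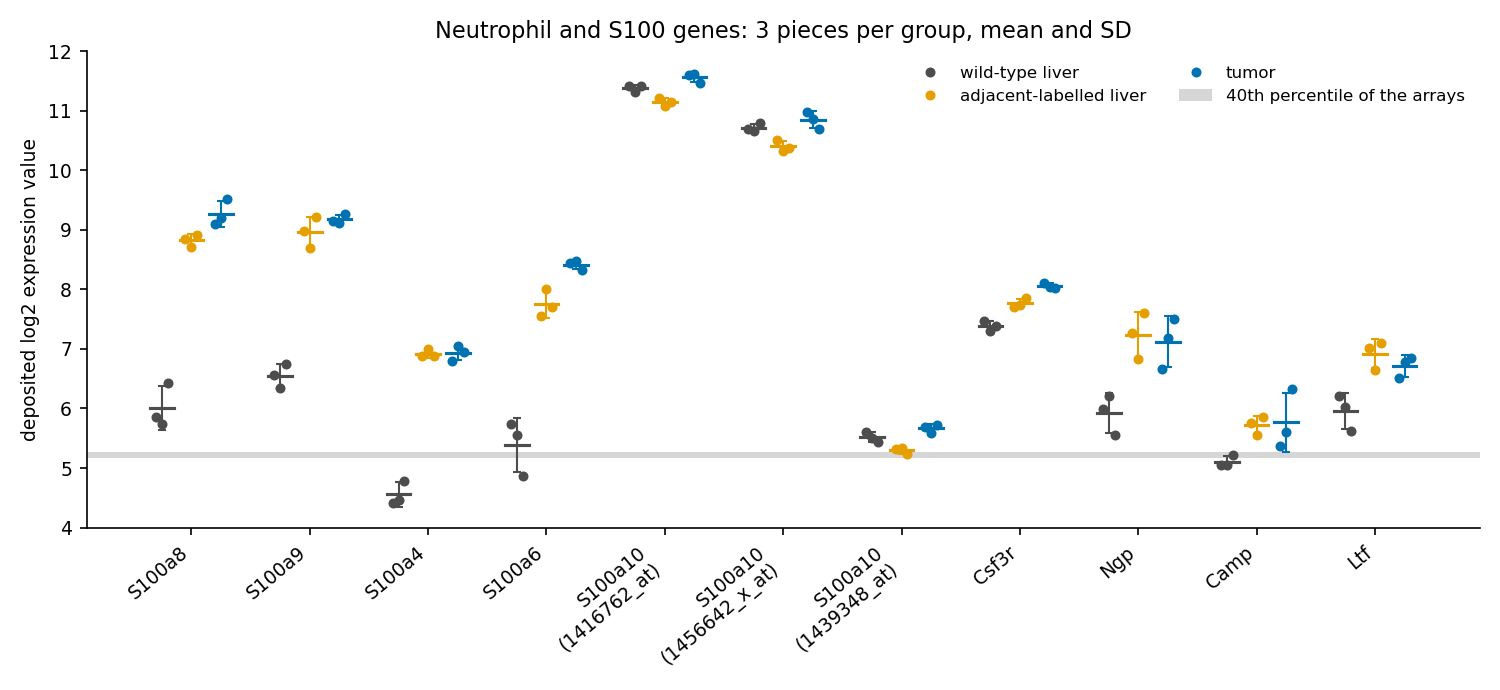
Deposited log2 expression values of the 11 probe sets on all 9 arrays. Points are pieces of tissue, horizontal bars are means and error bars are SD (n = 3), and the grey band spans the 40th percentiles of the arrays, 5.16 to 5.26. S100a8, S100a9, S100a4 and S100a6 are separated from wild-type liver in both other groups, S100a10 is nearly level, and the tumor values of Ngp and Camp are spread widely.

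S100a8, a subunit of calprotectin, read 5.85, 5.74 and 6.42 in the wild-type pieces, 8.84, 8.71 and 8.92 in the adjacent-labelled pieces and 9.09, 9.20 and 9.52 in the tumor pieces. The 3 groups did not overlap, with tumor highest. It rose 9.62-fold in tumor, a log2 difference of 3.27 (SE 0.17, adjusted p = 3.73e-08), and 7.06-fold in adjacent-labelled liver, a difference of 2.82 (SE 0.17, adjusted p = 1.48e-07). Tumor exceeded adjacent-labelled liver by 0.45 (95% interval 0.078 to 0.81, adjusted p = 0.0504), which is under the 2-fold limit. Its probe set, 1419394_s_at, is of the kind whose probes can match more than 1 transcript.

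S100a9 (1448756_at), the other subunit, read 6.56, 6.34 and 6.75 in the wild-type pieces, 8.97, 8.699 and 9.22 in the adjacent-labelled pieces and 9.15, 9.11 and 9.26 in the tumor pieces. Every SART1+/- piece lay above every wild-type piece, and the tumor pieces lay inside or just above the range of the adjacent-labelled ones. It rose by 2.63 in tumor (SE 0.13, adjusted p = 3.26e-08) and by 2.41 in adjacent-labelled liver (SE 0.13, adjusted p = 8.03e-08). The difference between tumor and adjacent-labelled liver was 0.21 (95% interval -0.077 to 0.503, adjusted p = 0.224). Over the 9 arrays the values of S100a8 and S100a9 correlated at r = 0.99, which describes 3 groups of 3 pieces that share their animals.

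S100a4 (1424542_at), which binds non-muscle myosin and marks fibroblast-like and some myeloid cells, was at 4.41, 4.47 and 4.79 in wild-type liver, each below the 40th percentile of its array. In adjacent-labelled liver it was at 6.88, 7.01 and 6.88, and in tumor at 6.80, 7.04 and 6.95. The SART1+/- groups overlapped each other and lay clear of wild type. The differences from wild type were 2.38 in tumor (SE 0.10, adjusted p = 1.03e-08) and 2.37 in adjacent-labelled liver (SE 0.10, adjusted p = 1.43e-08). The dim wild-type values leave the size of these folds uncertain. Tumor against adjacent-labelled liver gave 0.01 (95% interval -0.22 to 0.24, adjusted p = 0.949).

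S100a6 (1421375_a_at), also known as calcyclin, was at 5.73, 5.55 and 4.87 in wild-type liver, where the third piece was below the 40th percentile of its array. It was at 7.56, 8.002 and 7.71 in adjacent-labelled liver and at 8.45, 8.48 and 8.33 in tumor. The 3 groups did not overlap, and tumor was highest. It rose by 3.03 in tumor (SE 0.19, adjusted p = 1.84e-07) and by 2.37 in adjacent-labelled liver (SE 0.19, adjusted p = 1.50e-06). Tumor exceeded adjacent-labelled liver by 0.66 (95% interval 0.24 to 1.08, adjusted p = 0.0154), the widest gap between these 2 groups among the 11 probe sets and under the 2-fold limit.

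S100a10, the annexin A2 partner that binds plasminogen at the cell surface, did not follow the other S100 members. Its brightest probe set, 1416762_at, read 11.42, 11.32 and 11.41 in the wild-type pieces, 11.22, 11.08 and 11.15 in the adjacent-labelled pieces and 11.60, 11.62 and 11.47 in the tumor pieces. Adjacent-labelled liver was lowest and tumor highest, with no overlap between groups. The differences were small, at 0.18 for tumor (SE 0.07, adjusted p = 0.0368) and -0.23 for adjacent-labelled liver (SE 0.07, adjusted p = 0.011), each against wild type. The other probe sets gave 0.13 and 0.15 for tumor (adjusted p = 0.204 and 0.0741) and -0.32 and -0.22 for adjacent-labelled liver (adjusted p = 0.00724 and 0.017). All 3 gave tumor over adjacent-labelled liver by 0.37 to 0.45 (adjusted p = 0.00049 to 0.0013). One of them, 1439348_at, was below the median of all 9 arrays, and 1456642_x_at is of a kind prone to cross-hybridisation.

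**Figure D2:**
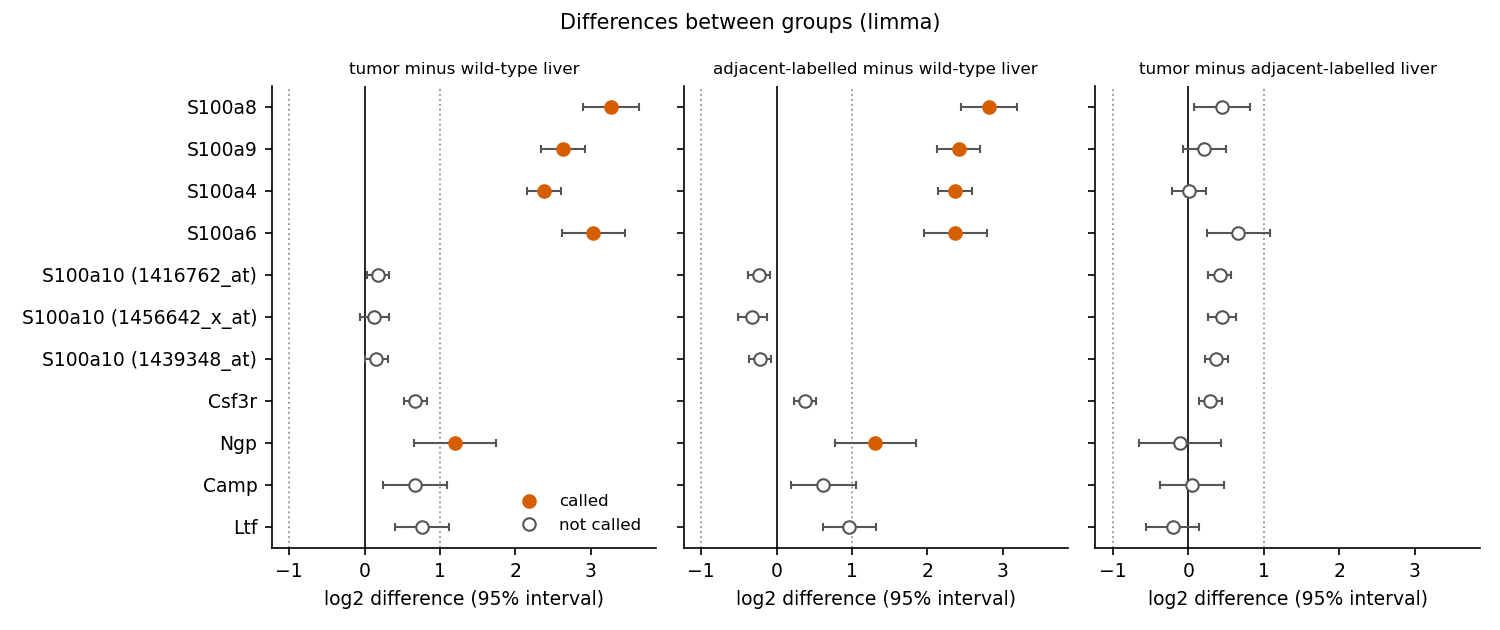
Log2 differences of the 11 probe sets in the 3 comparisons, with 95% intervals from limma. Filled points were called, and dotted lines mark the 2-fold limit. S100a8, S100a9, S100a4, S100a6 and Ngp are called against wild-type liver in both SART1+/- groups, and 0 are called between tumor and adjacent-labelled liver.

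The neutrophil receptor and granule members had smaller log2 differences from wild type than S100a8 and S100a9. Csf3r (1418806_at) read 7.47, 7.30 and 7.38 in the wild-type pieces, 7.71, 7.73 and 7.86 in the adjacent-labelled pieces and 8.11, 8.05 and 8.02 in the tumor pieces, without overlap between groups. The differences from wild type were 0.67 in tumor (SE 0.07, adjusted p = 8.07e-06) and 0.38 in adjacent-labelled liver (SE 0.07, adjusted p = 0.000644), short of 2-fold. Tumor exceeded adjacent-labelled liver by 0.29 (95% interval 0.14 to 0.44, adjusted p = 0.00504).

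Ngp (1418722_at), neutrophilic granule protein, read 5.99, 6.22 and 5.55 in the wild-type pieces, 7.27, 6.83 and 7.60 in the adjacent-labelled pieces and 6.66, 7.18 and 7.51 in the tumor pieces. All SART1+/- pieces exceeded the wild-type ones, and the SART1+/- groups overlapped. It rose by 1.31 in adjacent-labelled liver (SE 0.24, adjusted p = 0.000836) and by 1.197 in tumor (SE 0.24, adjusted p = 0.00147). The spread within each group, with SDs of 0.34, 0.39 and 0.43, gave the largest SE among the 11 probe sets. Leaving out 1 array at a time moved the tumor difference between 1.0006, without tumor replicate 3, and 1.43, without tumor replicate 1, so the lower value was just at the 2-fold limit.

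Ltf (1450009_at), the iron-binding protein lactoferrin, read 6.21, 6.02 and 5.63 in the wild-type pieces, 7.01, 6.64 and 7.10 in the adjacent-labelled pieces and 6.51, 6.78 and 6.85 in the tumor pieces. Wild type was lowest and the SART1+/- groups overlapped. The difference from wild type was 0.97 in adjacent-labelled liver (SE 0.16, adjusted p = 0.000363) and 0.76 in tumor (SE 0.16, adjusted p = 0.00183), short of 2-fold. The adjacent-labelled difference crossed that limit without wild-type replicate 1 (1.098), without wild-type replicate 2 (1.0007), without adjacent-labelled replicate 2 (1.11) and with cyclic loess normalization (1.0074).

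Camp (1419691_at), the precursor of the antimicrobial peptide cathelicidin, was at 5.04, 5.04 and 5.22 in wild-type liver, each below the 40th percentile of its array. It was at 5.76, 5.55 and 5.85 in adjacent-labelled liver and 5.37, 5.61 and 6.32 in tumor, where 1 piece stood above the others. The differences were 0.62 in adjacent-labelled liver (SE 0.19, adjusted p = 0.0176) and 0.67 in tumor (SE 0.19, adjusted p = 0.012), short of 2-fold. Without tumor replicate 3 the tumor difference was 0.39.

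Between tumor and adjacent-labelled liver, pieces of the same animal, limma called 0 of the 11 probe sets in either direction, where 2.25% of all probe sets tested were called higher in tumor and 2.47% lower. At an unadjusted p under 0.05 there were 6 of 11, against 50.1% of all probe sets. Past the adjusted p alone were 5 of 11, against 43.6% of all probe sets: S100a6, Csf3r and the 3 of S100a10, each higher in tumor. The pieces did not overlap for 6 of 11, these 5 and S100a8, against 52.2% of all probe sets. The granule genes had wider intervals, -0.655 to 0.427 for Ngp, -0.38 to 0.48 for Camp and -0.56 to 0.14 for Ltf, which span 0 (adjusted p = 0.749, 0.87 and 0.329). The median over the 11 was 0.29, and over all probe sets tested 0.0022.

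Other S100 genes were lower, near their wild-type level or too dim to test. Of 8 with a probe set, 4 passed the filter, and 1 was called lower and 0 higher in each comparison with wild-type liver. Of all probe sets tested, 7.8% were called higher and 4.22% lower in tumor, and 7.46% and 3.21% in adjacent-labelled liver. The same shares stand beside the counts of the lists that follow. S100a1, which binds calcium-handling proteins in muscle, fell by 1.93 in tumor (SE 0.07, adjusted p = 4.39e-09), from 11.29 ± 0.05 to 9.36 ± 0.10, and by 1.01 in adjacent-labelled liver (SE 0.07, adjusted p = 7.72e-07). S100a13 and S100a16 were at -0.77 and -0.34 in tumor and at -0.47 and -0.39 in adjacent-labelled liver, all under the 2-fold limit. S100b was at 0.15 in tumor and 0.12 in adjacent-labelled liver (adjusted p = 0.133 and 0.25). The median of the 4 was -0.56 in tumor and -0.43 in adjacent-labelled liver.

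**Figure D3:**
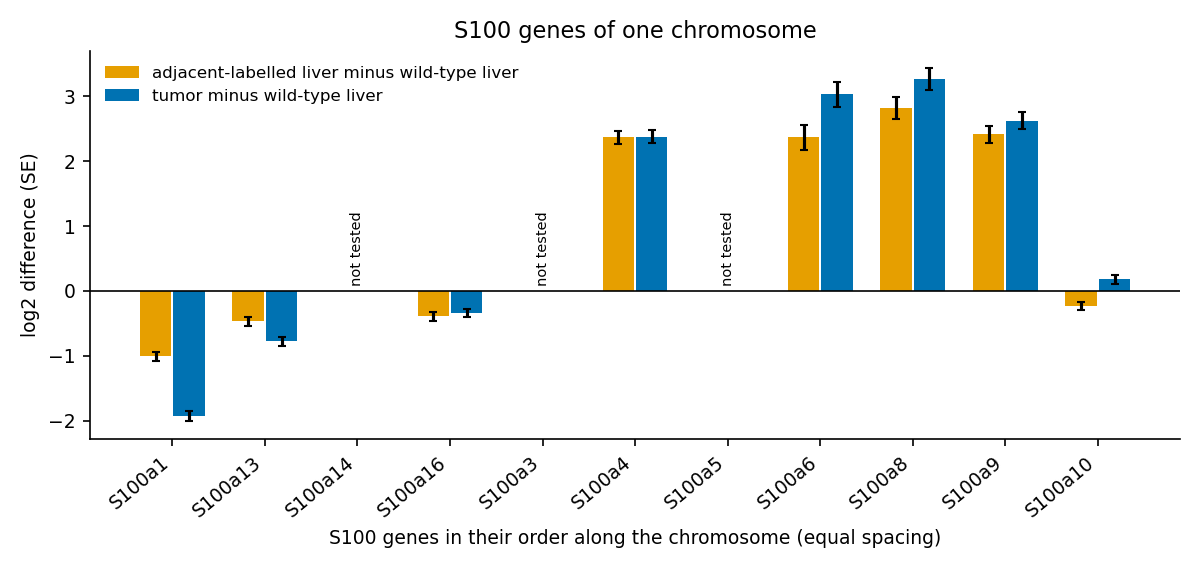
Log2 differences from wild-type liver (bars, with SE) of the S100 genes of chromosome 3 that have array values, in their order along the chromosome and not to scale. S100a1, S100a13 and S100a16 at one end have bars below 0, S100a4, S100a6, S100a8 and S100a9 have bars above 2, and S100a14, S100a3 and S100a5 did not pass the filter on dim probe sets.

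In RefSeq order these S100 genes run S100a1, S100a13, S100a14, S100a16, S100a3, S100a4, S100a5, S100a6, S100a8, S100a9 and, further along, S100a10. Values of S100a5 and S100a3 are given for their place beside S100a4 and did not pass the filter. S100a5, which lies between S100a4 and S100a6, had means of 5.05 ± 0.09 in wild-type liver, 4.86 ± 0.24 in adjacent-labelled liver and 4.87 ± 0.14 in tumor. S100a3, on the other side of S100a4, was at 4.36 ± 0.25, 4.35 ± 0.13 and 4.27 ± 0.12 in the same order.

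Known partners and receptors of S100 proteins were called higher in 8 of 16 tested genes in each comparison with wild type, not all of them shared, with 0 lower and list medians of 0.97 in tumor and 0.81 in adjacent-labelled liver. Anxa2, the annexin that binds S100a10, rose by 3.03 in tumor (SE 0.10) and by 2.18 in adjacent-labelled liver (SE 0.10), whereas S100a10 itself stayed within 0.32 of wild type on all its probe sets. A dimmer probe set of Anxa2 gave 0.82 in tumor and 0.43 in adjacent-labelled liver, under the limit. Anxa4 rose by 1.25 and 1.35, Anxa5 by 1.16 and 1.66, and Myh9, the myosin heavy chain bound by S100a4, by 1.32 and 1.25, in tumor and adjacent-labelled liver. Of the dimmer probe sets of Myh9, 1 gave 0.09 and -0.14 and was not called, and 1 gave 1.32 in tumor and 0.97, not called, in adjacent-labelled liver. The calprotectin receptor Tlr4 was at 0.23 in tumor and 0.25 in adjacent-labelled liver (adjusted p = 0.11 and 0.0805). The receptor Ager was at -0.06 and -0.02 on its brightest probe set (adjusted p = 0.551 and 0.864) and at 0.34 and 0.65 on another (adjusted p = 0.0402 and 0.00131), where neither SART1+/- group overlapped with wild type. All of these Tlr4 and Ager values were short of 2-fold. Bsg, also of this list, had means of 11.68, 11.63 and 12.45 in wild-type liver, adjacent-labelled liver and tumor. Cd36 had means of 9.85, 10.99 and 10.58 in the same order, and its dimmer probe sets gave 1.16 and 0.55 in adjacent-labelled liver. Tlr4, Ager, Bsg and Cd36 were chosen for mention after their values were seen.

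Of the neutrophil markers outside the list, 12 of 14 were not called in tumor. Of these 14 tested, 2 were called higher in tumor and 1 in adjacent-labelled liver, with 0 lower, and the list medians were 0.34 and 0.25. Of all probe sets tested, 7.8% and 7.46% were called higher, and the count in adjacent-labelled liver is near that share. Itgb2, the integrin chain shared by most leukocytes, rose by 1.61 and 1.502, and Pglyrp1, a peptidoglycan-binding protein of neutrophil granules, rose by 1.28 in tumor and was at 0.23 in adjacent-labelled liver. Pglyrp1 passed the filter through tumor alone, and all 6 wild-type and adjacent-labelled arrays were below the 40th percentile, so its differences are against a level near background. The chemokine receptor Cxcr2, which mature neutrophils carry, was at 5.55 ± 0.11, 5.40 ± 0.06 and 5.38 ± 0.12 in wild-type liver, adjacent-labelled liver and tumor. These values were below the median of every array and close to the 40th percentiles, 5.16 to 5.26. The other 11 (Mmp8, Mmp9, Mcemp1, Fpr2, Trem1, Trem3, Clec4d, Itgam, Csf3, Il1b and Ccrl2) were within -0.17 and 0.66 in tumor. In adjacent-labelled liver they reached 0.90, for Itgam, which was below the 40th percentile on all 3 wild-type arrays. Every SART1+/- piece of Fpr2, Mmp8, Clec4d, Itgam, Il1b and Ccrl2 lay above every wild-type piece, and every tumor piece of Csf3 lay below. Of all probe sets tested, 66.8% in tumor and 67.9% in adjacent-labelled liver did not overlap with wild type. Trem3, Clec4d and Itgam were below the median of every array, and Mmp9 was above it on 2 arrays and Trem1 on 4. For probe sets as dim as these and that of Cxcr2, a small difference does not show that the RNA was unchanged. Padi4 and Stfa3 did not pass the filter, and Ly6g, Retnlg, Fpr1, Stfa1, Stfa2 and Cxcr1 were not analysed here.

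Granule and oxidase genes outside the list split in 2. Of 12 tested, 6 were called higher and 0 lower in each comparison with wild type, with list medians of 0.80 in tumor and 0.79 in adjacent-labelled liver. The siderophore-binding protein Lcn2, which hepatocytes also make, rose by 6.33 and 6.002, the oxidase subunit Cybb by 2.57 and 3.35, the chitinase-like Chil3 by 2.52 and 2.29, and proteinase 3, Prtn3, a primary granule enzyme, by 2.00 and 2.12. Chil3 was below the 40th percentile on all 3 wild-type arrays, so its differences are against a level near background. The oxidase subunit Cyba rose by 1.39 and 1.16 and lysozyme, Lyz2, by 1.35 and 1.40. Cybb, Chil3, Cyba and Lyz2 are also made by macrophages. Unlike Prtn3, the other primary granule enzymes of the list, Mpo, Elane and Ctsg, also made in early neutrophil precursors, were not called and were at 0.01, 0.10 and -0.05 in tumor and 0.03, 0.01 and -0.11 in adjacent-labelled liver. Fcnb, Ncf1 and Hp were not called, and Olfm4 did not pass the filter.

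**Figure D4:**
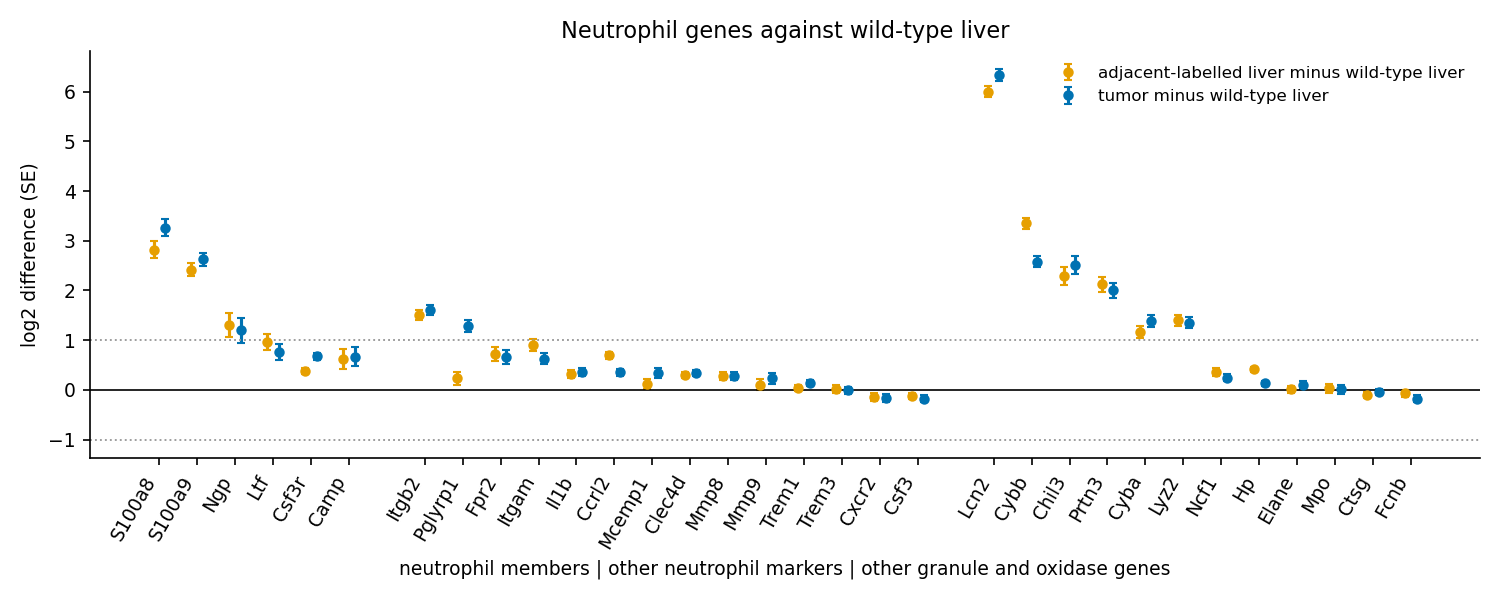
Log2 differences from wild-type liver (points, with SE) of the 6 neutrophil members, 14 other neutrophil markers and 12 other granule and oxidase genes that passed the filter. Dotted lines mark the 2-fold limit. S100a8, S100a9, Lcn2, Cybb, Chil3 and Prtn3 lie well above it, and Cxcr2, Mpo, Elane and Ctsg lie near 0.

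Genes that attract neutrophils or hold them to vessels were higher in 6 of 15 tested in tumor and 4 of 15 in adjacent-labelled liver, with 0 lower and list medians of 0.67 and 0.29. Among those called in both comparisons, Cxcl2 and Cxcl5 were below the 40th percentile on all 3 wild-type arrays. They passed the filter through the SART1+/- arrays alone, so their differences are against a level near background. Cxcl3, a ligand of Cxcr2, rose by 5.09 in tumor (SE 0.20) and was at 0.29 in adjacent-labelled liver. Its tumor mean was 7.77 ± 0.52, against 2.68 ± 0.08 in wild-type and 2.97 ± 0.09 in adjacent-labelled liver. It passed the filter through tumor alone, since all 6 other arrays were below the 40th percentile, so the size of its difference is uncertain. Cxcl1, a further ligand, rose by 1.56 in tumor and was at 0.79 in adjacent-labelled liver on its brightest probe set, and 2 other probe sets gave 3.71 and 3.08 in tumor and 2.63 and 2.15 in adjacent-labelled liver. The adhesion molecules Icam1 and Vcam1 rose by 2.48 and 1.57 in tumor and by 2.44 and 1.27 in adjacent-labelled liver. Of the other probe sets of Vcam1, 1 gave 0.74 and 0.55, under the limit, and 1 was called in both. Csf3, the ligand of Csf3r, was at -0.17 in tumor and -0.12 in adjacent-labelled liver.

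Of the markers of other cells that can hold S100 RNA, some moved with the members and some did not. Their part in the result was not tested. Of 19 macrophage and monocyte markers, 8 were called higher in each comparison with wild type, and 2 were called lower in tumor and 3 in adjacent-labelled liver. Cd14 rose by 4.59 in tumor, Mpeg1 by 2.19 and Cd68 by 1.40, and Cd163 was lower, at -4.87, with all SART1+/- arrays below the 40th percentile. Timd4 was also lower, with means of 6.98, 5.47 and 5.94 in wild-type liver, adjacent-labelled liver and tumor. Marco was at 6.97, 5.87 and 6.47 in the same order and was called lower in adjacent-labelled liver. The summed linear signal of these macrophage markers ranged from 11441 to 12188 in wild-type liver, 25050 to 26859 in adjacent-labelled liver and 24820 to 29952 in tumor. Of 13 stellate cell and fibroblast markers, 7 were higher and 1 lower in each comparison, with Col1a1 at 2.66, Col3a1 at 2.47, Vim at 1.68 and Timp1 at 1.59 in tumor. The 1 lower was Lrat, with means of 7.98, 6.97 and 6.87 in wild-type liver, adjacent-labelled liver and tumor. A dimmer probe set of Lrat gave -0.75 in tumor, not called, and -1.64 in adjacent-labelled liver. Another probe set of Col1a1 gave 0.63 in tumor, which was not called, and 1.11 in adjacent-labelled liver. Their summed signal was 6213 to 8548 in wild-type liver, 11496 to 14589 in adjacent-labelled liver and 10933 to 16008 in tumor.

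The summed signal of the neutrophil markers outside the list was 1010 to 1071 in wild-type liver, 1646 to 1801 in adjacent-labelled liver and 1659 to 1908 in tumor. The leukocyte integrin Itgb2, shared by most leukocytes, is the brightest gene in this sum and weighs most in it. Its log2 means were 7.99, 9.49 and 9.60 in the same order. Cholangiocyte markers were called higher in 2 of 9 in tumor and 4 of 9 in adjacent-labelled liver, with Cldn7 at 3.81 and 5.31 and Krt23 at 2.41 and 1.63. Lymphocyte markers were called higher in 3 and 2 of 11, led in tumor by Jchain at 2.23. Of 8 erythroid genes listed, 5 had a probe set and 2 passed the filter. Alas2 was called lower, at -2.70 in tumor and -2.32 in adjacent-labelled liver. Epb42, the other, was at -0.28 in both and was not called. Of 11 hepatocyte markers, 4 were called lower in tumor and 3 in adjacent-labelled liver, and the amino acid enzyme Tat was at -2.55 and -1.75.

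The genes whose 9 array values were most like those of S100a8 were Slc35c2, Ctsc and Foxp4, each at r = 0.996. Ctsc, cathepsin C, went from 11.18 ± 0.10 in wild-type liver to 12.498 ± 0.034 in adjacent-labelled liver and 12.68 ± 0.04 in tumor. The values most like those of S100a6 belonged to Txn2 and Smtn at r = 0.996 and Mta3 at r = 0.995. Such values rest on 3 groups of pieces from 2 animals, and are a description. Among the members, Ngp and Ltf correlated at r = 0.965, and S100a8 and the brightest probe set of S100a10 at r = 0.05.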

How the data were processed

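Expression was measured on 1-colour Affymetrix 3' arrays, 1 array per piece, 3 per group. The authors deposited log2 values per probe set, and the submitters' processing notes name RMA and version 1.3.1.187 of the Affymetrix Expression Console. RMA corrects background, equalises array distributions and summarises probes, so a change common to most genes would not show. The array medians were 5.76 to 5.81, 0 pairs of arrays were identical, and arrays of a group correlated at 0.996 to 0.998. No detection calls were used, and the number of arrays limits the precision. The highest value, read as a power of 2, is 23383. Scan dates were not used here.

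Of 45101 probe sets, 34958 had 1 symbol in the platform annotation, 932 several and 9211 none. The Entrez identifiers of all 11 member probe sets were found in RefSeq under the same symbol. The filter kept the 24140 probe sets whose value exceeded their array's 40th percentile on 3 or more arrays. Limma 3.58.1 in R 4.3.3 fitted 1 mean per group over all 9 arrays with 6 residual degrees of freedom, and p-values were adjusted by Benjamini-Hochberg over all probe sets tested. The fit was tested on simulated data. A simulated log2 change of 1 was called in 56% of cases for tumor against wild type and 46% for adjacent-labelled liver against wild type. Between tumor and adjacent-labelled liver it was called in 40%. A change at the 2-fold limit can thus go uncalled. Listed genes were represented by their brightest probe set. Text named all members, up to 4 genes of each list by adjusted p in tumor against wild-type liver, all other neutrophil and granule markers, and the 3 genes most like S100a8 and S100a6. Members and lists were chosen with earlier results of these data known. Tlr4, Ager, Bsg, Cd36, Cxcl2, Cxcl5, Timd4, Marco, Lrat, S100a3 and S100a5 fall outside that naming rule. S100a11, with no value, could not be used for it. Alternatives covered the threshold, filter, probe set rule, normalization, variance model, array weights, groups fitted, a replicate block and each array left out.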

Additional observations from a re-analysis of the deposited data

How the results depend on the processing

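The counts of members called against wild-type liver, 5 in each comparison, were 5 or 6 under every alternative except the threshold, and the count between tumor and adjacent-labelled liver was 0. With the adjusted p alone the counts were 9 for tumor, 11 for adjacent-labelled liver and 5 between them. All 180 refitted values of the called members kept their direction and call. Of 582 refitted values 10 changed sign, all between tumor and adjacent-labelled liver and near 0. S100a4 became -0.0067 with arrays centred on the median and -0.011 with cyclic loess, and ran from -0.044 to 0.075 with 1 array left out. Ngp ran from -0.32 to 0.11 with 1 array left out. Camp became -0.083 with array weights, and ran from -0.23 to 0.24 with 1 array left out. The cause was not tested. Ltf passed the 2-fold limit in 4 refits of adjacent-labelled against wild-type liver.

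Same-numbered arrays of different groups correlated in their deviations from the group means at -0.12 to 0.13, above 0.1 in 3 of 9 pairs. Only adjacent-labelled liver and tumor share a mouse, and their same-numbered pairs were at 0.101, 0.057 and 0.036. Their different-numbered pairs ran from -0.156 to 0.088. These few values cannot decide whether the numbers pair pieces. With the number as a replicate block the counts stayed at 5, 5 and 0, and S100a8 in tumor against adjacent-labelled liver had an adjusted p = 0.00817. The adjusted p of that difference, 0.0504 in the main fit, ranged from 0.00788 to 0.175 over its alternatives. Levels near the 40th percentile, as in wild-type S100a4 and Camp, cannot be told from background, which limits their differences.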
